A study of Homo sapiens with 4 samples.

Results

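The Krüppel-like factors (KLFs) are zinc finger transcription factors, and 10 of their genes were followed here (KLF2, KLF3, KLF4, KLF5, KLF6, KLF7, KLF9, KLF10, KLF11 and KLF13). They were taken by gene symbol, each having a single row, from a table of 58365 rows that holds 18 KLF genes in all. The study asked whether Wnt signaling is needed when human pluripotent cells turn to mesoderm. Cells of H1, a human embryonic stem cell line, were cultured for 2 days in mTeSR1-based medium with activin A (40 ng/ml) and BMP4 (50 ng/ml), as the sample labels give the doses; the study's methods give them the other way round. The DMSO group (n = 2) received the solvent and the IWP2 group (n = 2) received IWP2, a Porcupine inhibitor that blocks the secretion of Wnt ligands, so both groups carried the same inducing factors. All 4 samples came from a single line, the IWP2 dose is not given in the sources used here, and nothing in the labels says that samples with the same label came from separate cultures, so p-values measure the spread between these samples, which may be technical. Values are FPKM, fragment counts scaled to transcript length and library size, so that levels of different genes can be compared.

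KLF proteins bind CACCC and GC-rich boxes through a conserved C-terminal array of C2H2 zinc fingers, and differ mainly in the N-terminal part that recruits cofactors. Members such as KLF2, KLF4, KLF5, KLF6 and KLF7 act mostly as activators through histone acetyltransferases. KLF3, KLF8 and KLF12 recruit the corepressor CtBP, whereas KLF9, KLF10, KLF11, KLF13 and KLF16 bind the corepressor Sin3A. In pluripotent cells KLF2, KLF4 and KLF5 are known as self-renewal factors, best described in the naive state of the mouse, and KLF2 and KLF4 are known in endothelium as factors induced by blood flow.

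The markers of the cultures set the frame for these genes. All 7 listed markers of primitive streak and mesoderm were lower after IWP2, with a summed level of 1151 to 1458 FPKM in the DMSO samples and 186 to 205 FPKM in the IWP2 samples. Without IWP2 1 or IWP2 2, 4 of these 7 were called. Of 6 markers of undifferentiated cells, POU5F1, SOX2 and DPPA4 were higher, TDGF1 was lower, and NANOG and L1TD1 were not called. SOX2, which maintains pluripotency, stood at 0.193 and 0.174 FPKM with DMSO and at 35.6 and 36.1 FPKM with IWP2. Of 5 definitive endoderm markers 4 were lower (summed level 156 to 206 FPKM with DMSO and 84.2 to 100.4 FPKM with IWP2), and of 6 amnion or trophoblast markers 2 were higher and 2 lower, HAND1 being a mesoderm marker too (303 to 391 FPKM against 181 to 206 FPKM). Without IWP2 1 or IWP2 2 most of the endoderm calls were lost, and fewer amnion or trophoblast markers were called in each direction. The neural markers (57.4 to 61.9 FPKM against 2.69 to 3.02 FPKM) were carried by OTX2, which the anterior streak also uses, and SOX1 was at or near 0. The endothelial markers PECAM1 and CDH5 stayed below 0.5 FPKM in every sample (summed level of the 4 markers 6.12 to 9.06 FPKM against 3.39 to 4.01 FPKM). Of the blood markers GATA1 was at 0 throughout and RUNX1 was lower (summed level of the 5 markers 2.68 to 2.93 FPKM against 0.502 to 0.550 FPKM), a call lost without IWP2 1 or IWP2 2. RUNX1, MESP1, FOXA2, HHEX, GSC and CDX2 passed the filter only through DMSO, and SOX2 and KRT7 only through IWP2. In bulk RNA fewer cells of a type and less RNA per cell cannot be told apart, and the part of these shifts in the KLF values was not tested.

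Of the 10 KLF genes, 9 reached 1 FPKM in at least 2 of the 4 samples and were tested, and KLF9 did not. KLF5 and KLF6 were lower after IWP2 at an adjusted p below 0.05, and 7 were not called. These 2 of 9 genes make up 22.2%, beside 8.99% of all 14278 genes tested that were called lower. No KLF gene of the 9 was called higher by limma (1 was at an unadjusted p under 0.05), beside 7.23% of all genes. The DMSO and IWP2 samples did not overlap for 5 of the 9 genes, or 55.6%, a share near the 60.2% of all genes tested. The median log2 difference of the 9 genes was -0.16, against -0.02 over all genes tested.

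**Figure D1:**
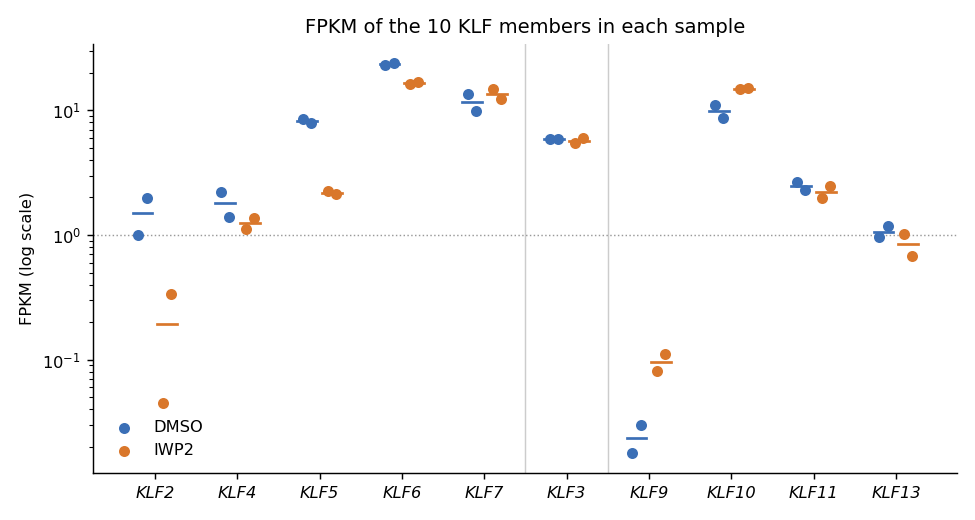
FPKM of the 10 KLF genes on a log axis; points are the 4 samples (DMSO blue, IWP2 orange), short lines are group means, the dotted line marks 1 FPKM, and vertical lines separate activators, KLF3, and the Sin3A-binding genes. KLF5 drops from about 8 to about 2 FPKM with closely spaced replicates, whereas KLF2 shows the widest spread within a group.

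The clearest change was that of KLF5, a factor of epithelial proliferation and of stem cell self-renewal. It measured 8.50 and 7.85 FPKM in the DMSO samples and 2.24 and 2.15 FPKM in the IWP2 samples. The replicates lay close together and the groups were far apart. The group means were 8.17 ± 0.460 and 2.19 ± 0.0646 FPKM (SD, n = 2), a 3.73-fold lower level after IWP2. On the log2(FPKM + 1) scale the difference was -1.52 ± 0.13 (SE), with a 95% interval of -1.85 to -1.19 and an adjusted p of 0.0026 by limma. KLF5 (ENSG00000102554.13) lies at chr13:73054976-73077542 on the plus strand of GRCh38, and the annotation shows no other gene overlapping it. It was called lower in all 11 alternative settings, among them each fit without a single library.

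The bases before the annotated start of KLF5 are shown because KLF5 had the smallest adjusted p of the members and kept its call in each alternative. The set of RefSeq promoters used here (GRCh38.p14) held a start for 8 of the 10 genes, KLF3 and KLF10 not being in it. The first start listed for a gene was used. For each of the 8, the 250 bases upstream were searched on both strands for the TCF/LEF core CTTTGA, bound by the DNA partners of β-catenin, and for the KLF core CACCC; the letters of the motifs do not overlap. Among 35116 promoters of the same length, 11.2% held CTTTGA and 54.7% held CACCC. Capitals mark a match to either motif in the lines that follow. The KLF5 window at chr13:73054726-73054975 (plus strand) held a single match to GGGTG, the reverse complement of CACCC, and no CTTTGA. KLF6 was the only member of the 8 with CTTTGA, on the plus orientation of the gene and 34 bases upstream of the start, and the 30 bases around it are given from chr10:3785226-3785255 (minus strand).
KLF5: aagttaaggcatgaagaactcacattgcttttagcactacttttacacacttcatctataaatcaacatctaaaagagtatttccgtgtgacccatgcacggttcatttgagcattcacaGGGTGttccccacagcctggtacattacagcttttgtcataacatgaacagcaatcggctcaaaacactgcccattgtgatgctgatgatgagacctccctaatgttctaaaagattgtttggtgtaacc
KLF6: ctggcagcggagCTTTGAatagggaagttt

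CACCC was found in 3 of the 8 windows, those of KLF5, KLF7 and KLF13. A match is a description of letters and not of a bound site. GENCODE lists 4 start positions for KLF5, the farthest 20039 bases downstream of the window shown, and 7 for KLF6. FPKM values sum over a gene's transcripts, so these data do not say which start was used. The GC content was 40.8% for the KLF5 window and 80.0% for that of KLF2, which held neither motif.

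KLF6, a broadly expressed activator known as a growth-restraining gene, had the highest level of the 10 genes in both groups. It measured 23.2 and 23.8 FPKM with DMSO and 16.2 and 17.0 FPKM with IWP2, so the groups were separate by more than their spread. The means were 23.5 ± 0.368 and 16.6 ± 0.513 FPKM (SD, n = 2), a 1.42-fold lower level. The log2(FPKM + 1) difference was -0.48 ± 0.09 (SE), with an adjusted p of 0.026 by limma. The call did not hold when a library was left out: the adjusted p was 0.071 without DMSO 1, 0.086 without DMSO 2, 0.163 without IWP2 1 and 0.133 without IWP2 2. It was also lost when genes of any level above 0 were tested (adjusted p = 0.069). KLF6 (ENSG00000067082.14) lies at chr10:3775996-3785281 on the minus strand.

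KLF7, the closest relative of KLF6 and known from neurons, did not follow it. It measured 13.5 and 9.86 FPKM with DMSO and 14.8 and 12.4 FPKM with IWP2, and the groups overlapped. The log2(FPKM + 1) difference was 0.21 ± 0.18 (SE), with a 95% interval of -0.24 to 0.66 and an adjusted p of 0.48 by limma. The ratio of KLF6 to KLF7 was 1.72 and 2.41 in the DMSO samples and 1.10 and 1.37 in the IWP2 samples. Each ratio was thus lower in the IWP2 samples than in either DMSO sample, a difference that was not tested.

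KLF2 and KLF4 were low genes in these cultures. KLF2, the factor of quiescent endothelium, measured 1.01 and 2.00 FPKM with DMSO and 0.0450 and 0.340 FPKM with IWP2. Both IWP2 values lay below both DMSO values, but replicates differed widely within each group. The log2(FPKM + 1) difference was -1.05 ± 0.27 (SE), with a 95% interval of -1.73 to -0.37, and the adjusted p of 0.057 by limma missed the threshold. Without DMSO 1 the adjusted p was 0.045, whereas without DMSO 2, IWP2 1 or IWP2 2 it was 0.150, 0.246 and 0.152. KLF2 passed the filter only through its DMSO values, so its direction is not counted as evidence. KLF2 (ENSG00000127528.5) lies at chr19:16324817-16327874 on the plus strand. KLF4, a reprogramming factor, measured 2.22 and 1.40 FPKM with DMSO and 1.11 and 1.37 FPKM with IWP2. The groups were separated by less than the distance between the DMSO samples. Its log2(FPKM + 1) difference was -0.31 ± 0.21 (SE), with a 95% interval of -0.84 to 0.22 and an adjusted p of 0.38 by limma.

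Among the Sin3A-binding genes, KLF10 showed the largest difference. KLF10 was first described as a gene induced early by TGF-β. It measured 11.0 and 8.61 FPKM with DMSO and 14.7 and 15.1 FPKM with IWP2, so the groups did not overlap and the IWP2 samples were the closer pair. The means were 9.80 ± 1.67 and 14.9 ± 0.296 FPKM (SD, n = 2), with a ratio of IWP2 to DMSO of 1.52. The log2(FPKM + 1) difference was 0.57 ± 0.14 (SE), with a 95% interval of 0.22 to 0.92, and the adjusted p of 0.051 by limma fell just short of the threshold. It was below the threshold without DMSO 1 (0.039), under median-ratio scaling (0.048), under quantile normalization (0.036) and with a filter at a mean of 5 FPKM (0.041), whereas it was 0.121, 0.209 and 0.237 without DMSO 2, IWP2 1 and IWP2 2. KLF11, the nearest relative of KLF10 and also induced by TGF-β, measured 2.67 and 2.31 FPKM with DMSO and 2.00 and 2.46 FPKM with IWP2. These values overlapped, with a log2(FPKM + 1) difference of -0.11 ± 0.16 (SE) and a 95% interval of -0.53 to 0.30. The ratio of KLF10 to KLF11 was 4.11 and 3.73 with DMSO and 7.36 and 6.15 with IWP2.

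KLF13, known from heart and lymphocytes, stayed near 1 FPKM in all samples. It measured 0.956 and 1.18 FPKM with DMSO and 1.03 and 0.675 FPKM with IWP2, with overlapping groups and a 95% interval of -0.65 to 0.32 for the log2(FPKM + 1) difference. KLF9, a gene induced by glucocorticoid and thyroid hormone, was almost absent. It measured 0.0177 and 0.0297 FPKM with DMSO and 0.0805 and 0.112 FPKM with IWP2, which is too low to be tested here. KLF3, the CtBP-binding repressor among the 10 genes, was the steadiest. It measured 5.85 and 5.89 FPKM with DMSO and 5.45 and 5.97 FPKM with IWP2, and the IWP2 samples enclosed both DMSO values. Its log2(FPKM + 1) difference was -0.03 ± 0.12 (SE), with a 95% interval of -0.35 to 0.28, so the data allow changes of that size in either direction.

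**Figure D2:**
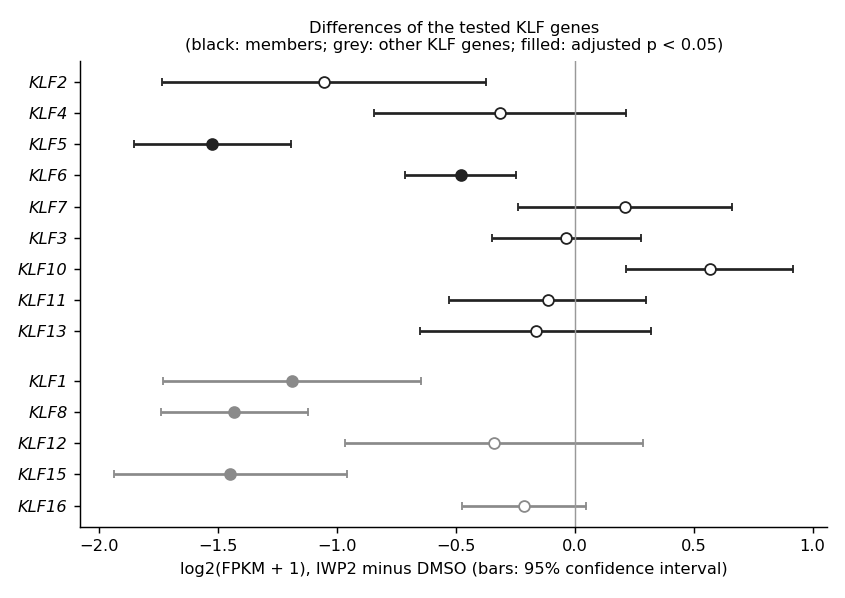
Difference in log2(FPKM + 1), IWP2 minus DMSO, for the 9 tested members (black) and 5 other KLF genes (grey), with 95% confidence intervals from limma; filled points have an adjusted p below 0.05. KLF5, KLF8 and KLF15 lie near -1.5, and KLF10 is the only member whose interval lies wholly above 0.

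**Figure D3:**
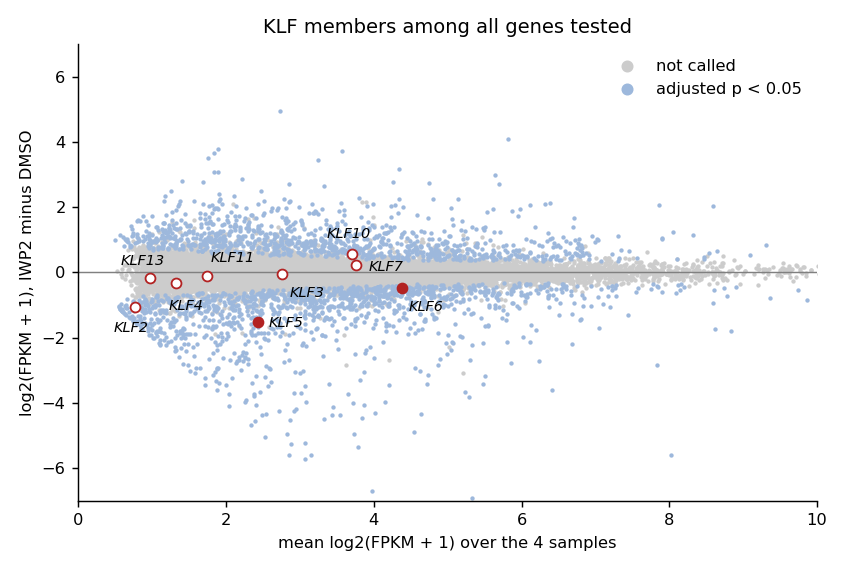
Difference in log2(FPKM + 1), IWP2 minus DMSO, against the mean log2(FPKM + 1) over the 4 samples for all genes tested; called genes are blue, others grey, and the tested KLF members are red circles, filled where called. KLF5 lies within the cloud of called genes, and 98 genes fall outside the axes.

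The order of levels shifted between the groups. In the DMSO samples KLF6 came first, then KLF7 (11.7 ± 2.60 FPKM, SD, n = 2), KLF10, KLF5, KLF3, KLF11, KLF4, KLF2, KLF13 and KLF9. The ranges of KLF7 and KLF10 overlapped there, as did those of KLF4 with KLF2 and of KLF2 with KLF13. In the IWP2 samples the order was KLF6, KLF10, KLF7 (13.6 ± 1.72 FPKM), KLF3, KLF11, KLF5, KLF4, KLF13, KLF2 and KLF9. The ranges overlapped for KLF10 with KLF7, for KLF11 with KLF5 and for KLF2 with KLF9. KLF5 thus moved from the fourth place, above KLF3, to the sixth place, level with KLF11. Among all genes tested, the mean of KLF5 stood at the 44.4th percentile with DMSO and at the 17.4th with IWP2.

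The summed level of the 10 genes was 68.9 and 62.9 FPKM with DMSO and 57.7 and 57.5 FPKM with IWP2. The sum was thus lower in both IWP2 samples, with a mean difference of -8.30 FPKM. The gap between the groups was smaller than the distance between the DMSO samples. The sums of the subgroups differed in direction, without a test. The 5 activators summed to 48.5 and 44.8 FPKM with DMSO and to 34.4 and 33.2 FPKM with IWP2. Most of this difference lay in KLF6 (means of 23.5 and 16.6 FPKM) and KLF5 (8.17 and 2.19 FPKM). KLF7 had the higher mean with IWP2 (11.7 FPKM with DMSO and 13.6 FPKM with IWP2). The 4 Sin3A-binding genes summed to 14.6 and 12.1 FPKM with DMSO and to 17.8 and 18.4 FPKM with IWP2 and KLF10 made up most of each of these sums. With the remaining KLF genes added, the Sin3A-binding sum was 45.1 and 44.7 FPKM with DMSO and 43.2 and 47.2 FPKM with IWP2, so that the groups overlapped. The 6 activators then summed to 50.1 and 47.2 FPKM with DMSO and to 34.6 and 33.6 FPKM with IWP2. The 3 CtBP-binding genes (KLF3, KLF8 and KLF12) summed to 28.9 and 30.9 FPKM with DMSO and to 15.2 and 14.6 FPKM with IWP2. This sum of repressors was thus lower with IWP2 too. Most of its difference lay in KLF8 (means of 21.2 FPKM with DMSO and 7.20 FPKM with IWP2), while KLF3 and KLF12 were not called.

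**Figure D4:**
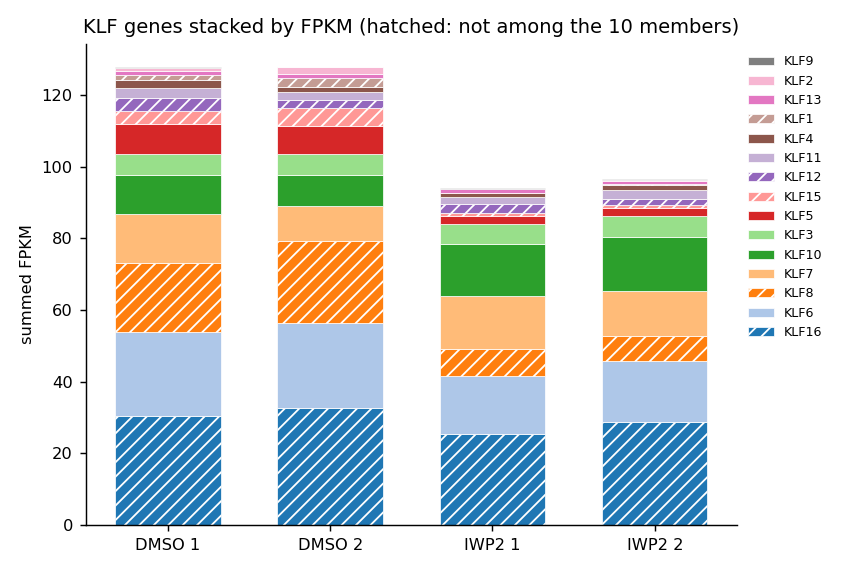
Summed FPKM of the KLF genes in each sample, stacked by gene; hatched blocks are KLF genes outside the 10 members. The stack is about 128 FPKM high in both DMSO samples and 93.9 and 96.4 FPKM in the IWP2 samples, and the KLF8 block shrinks most.

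Across all 18 KLF genes the sum was 128 FPKM in each DMSO sample and 93.9 and 96.4 FPKM in the IWP2 samples. Within this sum KLF6 held 18.2% and 18.6% with DMSO and 17.3% and 17.6% with IWP2, so its share was nearly level. KLF5 held 6.65% and 6.14% with DMSO and 2.38% and 2.23% with IWP2. KLF10 held 8.59% and 6.74% with DMSO and 15.6% and 15.7% with IWP2, and was the member whose share differed most. As the whole sum was lower with IWP2, shares overstate rises and hide falls in level. In level KLF10 had a ratio of IWP2 to DMSO of 1.52 and was not called. KLF7, also not called, held 10.6% and 7.71% with DMSO and 15.8% and 12.8% with IWP2. KLF6 was lower in level despite its nearly level share. KLF14, KLF17 and KLF18 were at 0 in every sample. Of 7 other KLF genes listed, 5 were tested, 3 were lower (1 without IWP2 1 or IWP2 2) and none was called higher, beside 8.99% of all genes called lower. Since KLF1 and KLF15 could be tested only because of their DMSO levels, KLF8 is the only call of the 3 that the filter did not favour. KLF8, a CtBP-binding repressor, measured 19.4 and 22.9 FPKM with DMSO and 7.38 and 7.02 FPKM with IWP2, with an adjusted p of 0.0025 by limma. KLF8 was called in all 11 alternatives. Its difference of -1.43 on the log2(FPKM + 1) scale was close to that of KLF5, while its relative KLF3 differed by -0.03. KLF15, a regulator of metabolism, measured 3.62 and 5.16 FPKM with DMSO and 0.923 and 0.991 FPKM with IWP2. Its adjusted p was 0.0088 by limma, and 0.079 and 0.074 without IWP2 1 and IWP2 2. Like KLF1, it passed the filter only through its DMSO values. KLF1, the erythroid factor of globin genes, measured 1.60 and 2.33 FPKM with DMSO and 0.178 and 0.415 FPKM with IWP2. Its adjusted p was 0.021, and it was 0.073, 0.132 and 0.095 without DMSO 2, IWP2 1 and IWP2 2. KLF16 was the most abundant KLF gene in every sample, at 30.5 and 32.5 FPKM with DMSO and 25.4 and 28.8 FPKM with IWP2, and its log2 difference of -0.21 was not called (adjusted p = 0.24).

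The SP factors share the zinc finger type of the KLFs. Of 9 listed, 7 were tested and 3 were lower, namely SP5, SP6 and SP8. SP5, a Wnt target gene, measured 53.2 and 47.0 FPKM with DMSO and 0.379 and 0.363 FPKM with IWP2 (adjusted p = 0.00015). SP1 to SP4 were not called, with log2 differences of -0.29 to 0.05. SP8 lost its call without IWP2 1 (adjusted p = 0.055). SP5 and SP8 were below 1 FPKM in both IWP2 samples and passed the filter only through DMSO, which leaves SP6 as the lower SP gene that passed in both groups. Of 8 Wnt response genes, a check of the treatment that shares SP5 with the SP list, 6 were lower and none higher, and RNF43 and ZNRF3 were not called. LEF1, a DNA-binding partner of β-catenin, measured 9.34 and 9.70 FPKM with DMSO and 0.144 and 0.239 FPKM with IWP2 (adjusted p = 0.00044). LEF1, like SP5, passed the filter only through DMSO, whereas NKD1, AXIN2, NOTUM and T passed in both groups. AXIN2, a feedback inhibitor of β-catenin, measured 14.2 and 15.2 FPKM with DMSO and 6.45 and 5.58 FPKM with IWP2 (adjusted p = 0.0044). Each fit without a single library called 4 to 6 of the 8 genes lower.

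Most cofactors and modifiers of KLF proteins were not called, and those called went in either direction. Of all genes tested, 7.23% were called higher and 8.99% lower. Of 9 corepressors and coactivators, 2 were higher, none was lower and 7 were not called. CTBP1, a partner of KLF3 and KLF8, measured 90.8 and 98.0 FPKM with DMSO and 78.8 and 88.3 FPKM with IWP2 (adjusted p = 0.29 by limma). SIN3A measured 21.9 and 24.5 FPKM with DMSO and 25.6 and 22.6 FPKM with IWP2 (adjusted p = 0.80 by limma). CTBP2, a further partner of KLF3 and KLF8, measured 54.3 and 53.8 FPKM with DMSO and 77.3 and 75.6 FPKM with IWP2. Its adjusted p was 0.014, but it was 0.055, 0.112 and 0.102 without DMSO 2, IWP2 1 and IWP2 2. SIN3B, a partner of the Sin3A-type repressors, was at the threshold (adjusted p = 0.0494, and 0.114 to 0.247 with any library left out). Of 6 tested genes of the kinase and MEF2 route that induces KLF2 and KLF4, none was called by limma, with a median log2 difference of -0.27. Of 5 E3 ligases that act on KLF proteins, FBXW7 was higher, WWP1 was lower and 3 were not called. FBXW7, which marks KLF2 and KLF5 for degradation, measured 9.89 and 10.5 FPKM with DMSO and 17.7 and 16.6 FPKM with IWP2 (adjusted p = 0.012, and 0.113 and 0.089 without IWP2 1 and IWP2 2). WWP1, a ligase of the same proteins, measured 27.8 and 37.6 FPKM with DMSO and 16.3 and 19.5 FPKM with IWP2 (adjusted p = 0.032, and 0.088, 0.177 and 0.110 without DMSO 2, IWP2 1 and IWP2 2).

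**Figure D5:**
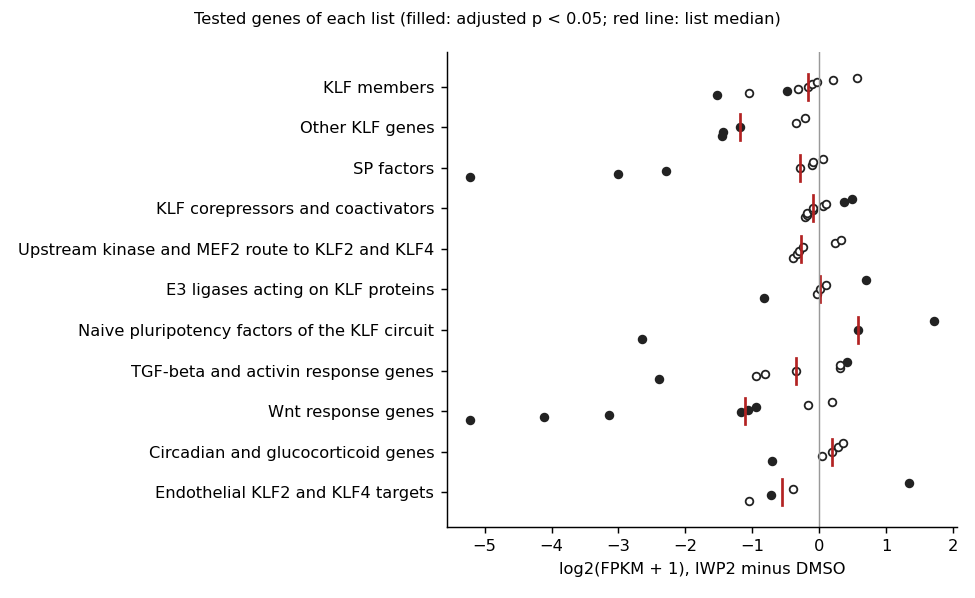
Difference in log2(FPKM + 1), IWP2 minus DMSO, of the tested genes in each list; each point is a gene, filled where the adjusted p is below 0.05, and red lines are list medians. SP5 lies farthest to the left, in the SP and Wnt lists, and the 9 tested KLF members have a median of -0.16.

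The programs in which KLF genes are known to act were mixed. Of 9 naive pluripotency genes only 3 were tested. PRDM14 and ZFP42 were higher, and TBX3, which is also a gene of early mesoderm and amnion, was lower. PRDM14, a pluripotency factor, measured 1.34 and 1.64 FPKM with DMSO and 6.98 and 7.42 FPKM with IWP2 (adjusted p = 0.0025). ZFP42 lost its call without DMSO 1, IWP2 1 or IWP2 2 (adjusted p = 0.072, 0.082 and 0.133). ESRRB, TFCP2L1 and NR5A2 stayed below 1 FPKM in every sample, and KLF17 was at 0. Of 7 TGF-β and activin response genes, PMEPA1 was higher, LEFTY1 was lower and 5 were not called. The lower count was 2 without DMSO 2, LEFTY2 being added (adjusted p = 0.011), and 2 with the sample number as a replicate block, SKI being added (adjusted p = 0.0041). LEFTY1, an inhibitor of Nodal, measured 97.0 and 57.1 FPKM with DMSO and 13.6 and 13.3 FPKM with IWP2 (adjusted p = 0.0040). PMEPA1 lost its call with any library left out (adjusted p = 0.071 to 0.208). Of 6 endothelial targets of KLF2 and KLF4, a list that holds KLF2 itself, 4 were tested, NR2F2 was higher and TEK was lower. NR2F2 passed the filter only through its IWP2 values and lost its call without IWP2 1 or IWP2 2 (adjusted p = 0.078 and 0.069), as TEK did with any library left out (0.089 to 0.207). Of 6 circadian and glucocorticoid genes that accompany KLF9, 5 were tested and BHLHE40 was lower (adjusted p = 0.0088, and 0.085 and 0.074 without IWP2 1 and IWP2 2).

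Overlapping transcripts limit a pair of these values. The opposite-strand gene KLF3-AS1 shares up to 266 bases of an exon with KLF3 and measured 0.110 to 0.388 FPKM. The antisense gene AC104794.4 shares up to 416 bases with KLF11 and measured 0.926 and 1.32 FPKM with DMSO and at most 0.387 FPKM with IWP2. Whether the counting used strand is not given in the sources used here, so reads of these pairs cannot be told apart if it did not. KLF10 (ENSG00000155090.14) lies at chr8:102648779-102655902 on the minus strand, with no overlapping gene.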

How the data were processed

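RNA of 4 samples was sequenced after TruSeq library preparation, and the deposited table holds FPKM values that the authors computed per gene and sample. The header names no unit; FPKM was read from the values, which are not whole and sum to 616418 to 653850 per sample. The submitters' processing notes name BWA, Bowtie, RSEM and hg19 without versions, but 97.3% of the positions of matched genes equal those of GENCODE 29 on GRCh38, so GRCh38 coordinates are given. The library depth is unknown: the spacing of the lowest values gave relative depths of 0.89 to 1.10 against DMSO 1. The control columns are headed as the arm without IWP2 and were taken as the DMSO group of the titles; sample numbers in the text are those of the column heads.

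Genes with at least 1 FPKM in at least 2 samples were tested by limma 3.58.1 (R 4.3.3) on log2(FPKM + 1) with an intensity trend and group as the only term, with two-sided p-values, Benjamini-Hochberg adjustment over 14278 genes and a threshold of 0.05. Fold changes of low genes are understated on this scale. An exact permutation test of 2 against 2 samples cannot give a p below 0.333. All 10 KLF genes are named; every other list is given by its counts, with up to 4 genes of the smallest adjusted p named, those near 0 where that matters, and further names such as AXIN2 added after their values were seen. The members and lists were chosen with earlier results of these data known, so list counts are descriptions. The script was tested on simulated data. Alternatives were the pseudocount, filter, scaling, trend, replicate block and each left-out library. Protein sequences were not used here, and a gene of the TGF-β list is not reported here.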

Additional observations from a re-analysis of the deposited data

How the results depend on the processing

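KLF5 kept its call in all 11 alternatives, with log2 differences of -1.85 to -1.47. KLF3, not called, turned from -0.03 to 0.0065 under quantile normalization and ranged from -0.091 to 0.022 with a library left out, the upper value being that without IWP2 1. The number of KLF genes called lower, 2 in the report, was 1 with no filter, KLF6 losing its call. With a library left out KLF5 kept its call, and KLF6 lost it each time (log2 difference -0.51 to -0.45). KLF2, which passed the filter only through DMSO, was added without DMSO 1 (log2 difference -1.34). The number called higher, 0 in the report, was 1 with the filter at a mean of 5 FPKM, 1 under median-ratio scaling, 1 under quantile normalization, and 0 to 1 with a library left out, KLF10 being that gene each time. Over all genes tested, 1032 were higher and 1284 lower. With no filter 118 were higher and 263 lower of 28917 tested, many more genes at low values entering the fit. Leaving out a library, which leaves an arm with 1 sample assumed to vary like the rest, gave 173 to 815 higher and 392 to 841 lower. Of the recomputed list counts 43 moved, by more than 1.5 times or to or from 0, and 195 did not. Many of the counts that did not move were 0 in both fits. The summed level of the members was lower after IWP2 in all 5 alternatives.

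The replicate numbers of the titles are not said to mark a shared batch. Deviations of same-numbered samples correlated at 0.205 across genes, and mitochondrial genes held 9.57% and 8.95% of FPKM in the number 1 samples and 6.25% and 6.92% in the number 2 samples. With the number as a replicate block 997 genes were higher and 1241 lower of 14278 tested. Of the 9 KLF genes 3 were then lower, KLF2 being added (log2 difference -1.05, adjusted p = 0.026 by limma). KLF2 passed the filter only through its DMSO values, so this added call is not counted as evidence. Depth, known only in relative terms, limits KLF2, KLF4, KLF9 and KLF13, which lie at or below about 2 FPKM. The IWP2 values of KLF5 (2.24 and 2.15 FPKM) and the values of KLF11 (2.00 to 2.67 FPKM) lie little above that level.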
